A study of Mus musculus with 6 samples.

Results

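The genes described here encode the proteasome and the factors that build it. They were taken by symbol: a probe was a member when its single annotated gene symbol began with Psma, Psmb, Psmc, Psmd, Psme or Psmg, or was Psmf1. The rule found 86 probes of 49 genes among 45281 probes of 19057 named genes, and it used no measured value. Gene expression was profiled with 6 Illumina bead arrays in lenses of mice at postnatal day 4. Of the arrays, 3 held lens RNA of Tdrd7 null mice and 3 that of Tdrd7 heterozygous mice, and both genotypes were on a mixed C57BL/6J and C3A.Blia background. The product of Tdrd7 has Tudor domains and belongs to RNA granules of the cytoplasm, and its loss causes cataract. The heterozygous mice carry the mutant allele too, and wild type lens was not analysed here. The arrays of a group are called a, b and c, and values are given in that order. The labels do not state that each array is a different animal, and the p-values thus reflect array-to-array spread alone, which may be technical.

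The proteasome is the barrel-shaped protease that degrades proteins marked with ubiquitin. Its core stacks rings of alpha subunits, which gate the entrance, around rings of beta subunits, of which Psmb5, Psmb6 and Psmb7 cut peptide bonds. A regulatory cap with a ring of ATPases (Psmc genes) and a set of non-ATPase subunits (Psmd genes) receives, unfolds and de-ubiquitinates the substrate. Interferon can exchange the cutting subunits for Psmb8, Psmb9 and Psmb10, which forms the immunoproteasome. In the lens, where fiber cells lose their organelles and keep their proteins for life, the ubiquitin-proteasome system is known for its part in fiber differentiation and protein quality control.

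The labels held for the targeted gene: Tdrd7 gave raw signals of 1266.1, 1202.2 and 1103.4 on the null arrays, against 13045, 12472.9 and 13064.7 on the heterozygous arrays. Each array detected between 13901 and 15765 probes, at a detection p under 0.05. A probe was tested when it was detected on at least 3 of the 6 arrays, which held for 14636 probes of 8626 genes. Of 10 lens fiber genes listed as a tissue check 8 had a probe, and 7 of these were detected on all 6 arrays, among them Cryaa, Cryab, Crybb1, Mip and Lim2. On the normalised scale 4 of these 7 were higher and 3 lower in null lens, with a median difference of 0.0125. Cryab was lower on each null array, with a difference of -0.44 (unadjusted p = 0.034, adjusted p = 0.964, limma). The summed raw signal of the 8 was 185264 to 214102 on the null arrays, against 218658 to 224354 on the heterozygous arrays. These ranges do not overlap. Within the sum, Cryaa gave 18535 on null array b, against 33790 and 38115 on null arrays a and c. The part of the fiber signal in the results below was not tested. Of 9 vascular markers 8 were tested, 6 higher and 2 lower in null lens with a median difference of 0.44, and 4 tested red blood cell markers were all higher, with a median of 0.71. By limma 0 of these 12 passed the adjusted threshold and 3, Emcn, Flt1 and Rgs5, had an unadjusted p under 0.05. Those 3 were detected on 3 of 3 null arrays, but on 0, 1 and 1 heterozygous arrays in that order. Emcn thus passed the detection filter through the null arrays alone. All 3 are dim, with raw means of 86.7, 88.5 and 110.5 in null lens and 77.9, 78.3 and 80.8 in heterozygous lens. The part of both lists in the results below was not tested. Their summed raw signals overlapped, at 831 to 955 in null against 747 to 900 in heterozygous lens for the vascular list and 795 to 1386 against 621 to 1090 for the red blood cell list. Null array b stood apart. The SD of its log2 differences from the other arrays was 0.455 to 0.526, while that between any other pair of arrays was 0.271 to 0.34. The number of arrays limits the precision of every value below.

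Most proteasome genes were measurable in lens RNA. Of the 86 member probes 60 were detected on all 6 arrays, 8 on 1 to 5 arrays and 18 on 0 arrays. By gene, 38 of 49 had a probe detected on every array, and 39 genes, with 63 probes, were tested. All 7 constitutive beta subunits and all 4 activator genes were among the tested genes, as were 10 of 11 non-ATPase cap subunits, 5 of 6 ATPases and 6 of 7 assembly genes. Of the alpha ring 4 of 8 genes were tested, and of the immunoproteasome and thymus beta subunits 1 of 4. No member probe was detected on any array for 9 genes: Psma1, Psma3, Psma6, Psma8, Psmb9, Psmb11, Psmc6, Psmd3 and Psmg4. A probe at background does not give the level of its gene: in 9 genes another probe of the same gene was tested, and in Psmb2, for instance, 1 of 3 probes was detected on 0 arrays and the other probes on all 6. Probes bind with different strength, so signals are compared between arrays for the same probe and never between probes.

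No proteasome gene passed the test between null and heterozygous lens. Differences are null minus heterozygous on the normalised log2 scale, and a positive one means a higher signal in null lens. With limma and Benjamini-Hochberg adjustment over all tested probes, 0 of 63 member probes passed an adjusted p of 0.05, where 2 of 14636 probes passed in all, a background of 0.0137%. The adjusted p of the member probes ran from 0.964 to 1, and by limma 1 of 63 had an unadjusted p under 0.05, which is 1.59% of them against 4.11% of all tested probes. Taking each gene's probe with the highest mean signal, 18 genes were higher and 21 lower in null lens. Their median difference was -0.0043, against -0.011 over all tested genes, and they spanned -0.31 (Psmg2) to 0.47 (Psmd2). The median absolute difference was 0.085 over members and 0.13 over all tested genes. A 95% interval within a 1.5-fold difference either way was found for 45 of the 63 member probes, 71.4%, against 57.8% of all tested probes, and the intervals of 62 of 63 lay within 2-fold. The exception was Psmb5. In 11 of the 19 genes with more than 1 tested probe, the probes differed in sign.

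**Figure D1:**
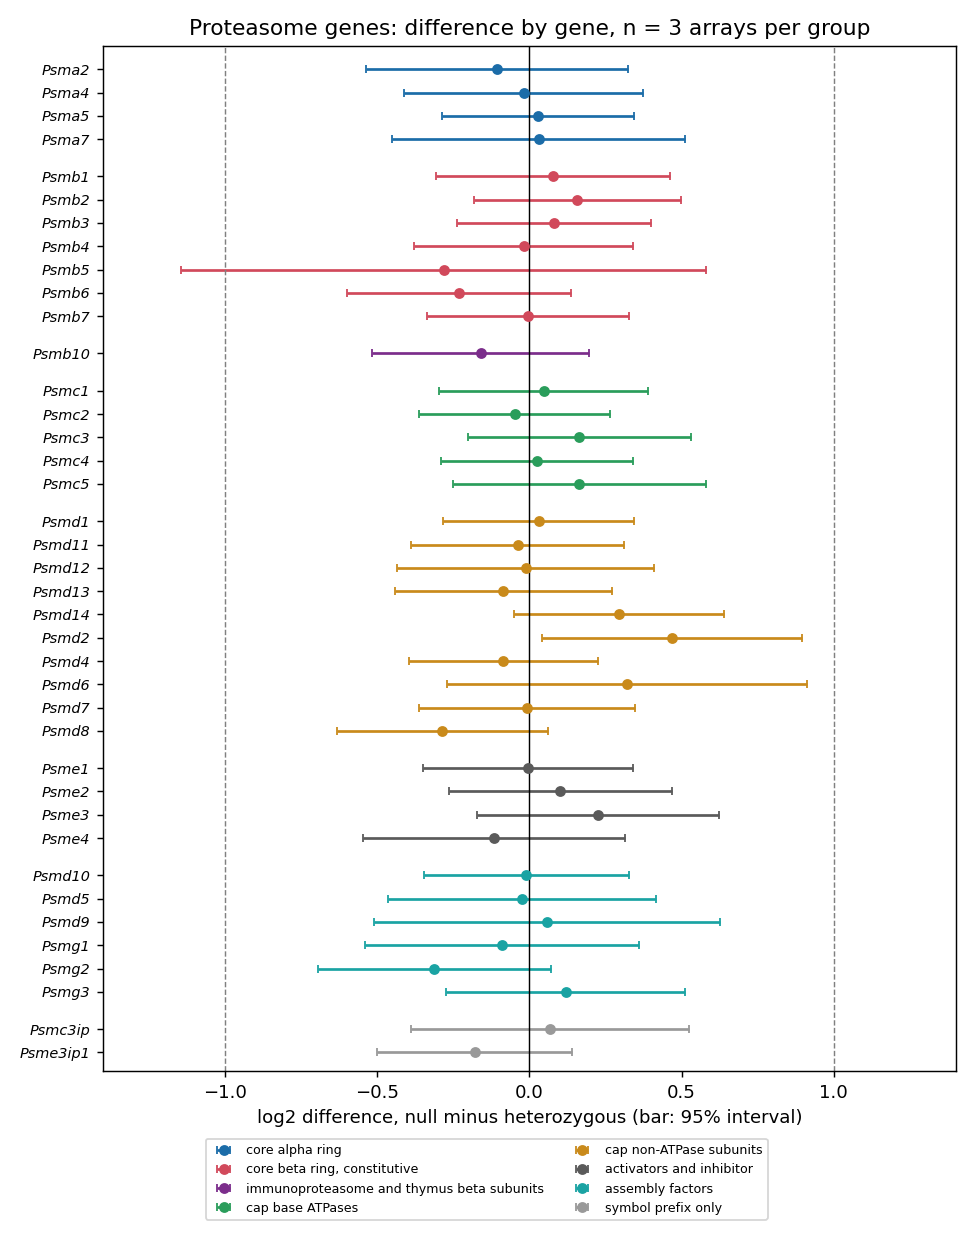
Difference in log2 signal, null minus heterozygous, for each of the 39 tested genes (points) with its 95% interval (bars), coloured by class; dashed lines mark a 2-fold difference either way. All intervals but that of Psmd2 include 0, and that of Psmb5 is the widest, from -1.14 to 0.58.

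Of the 4 tested genes of the alpha ring, which forms the gate of the core, 2 were higher and 2 lower in null lens, with a median difference of 0.0046. Psma5 had a log2 signal of 12.06, 11.92 and 12.01 on the null arrays, against 11.98, 11.93 and 12.00 on the heterozygous arrays. These values interleave, and the difference was 0.03 (SE 0.14, 95% interval -0.29 to 0.34). Psma2 gave 11.96, 11.38 and 11.97 on the null arrays, against 11.72, 11.99 and 11.91 on the heterozygous arrays. The low value belongs to null array b. The difference of Psma2 was -0.11 (SE 0.192), and without null array b it was 0.087. Psma7, another alpha subunit, was high on that array, with 9.72, 10.36 and 9.51 on the null arrays, against 9.83, 9.82 and 9.86 on the heterozygous arrays. A second Psma7 probe gave the same order of the null arrays, and the Psma7 difference of 0.03 became -0.22 without null array b. Psma4 differed by -0.02 (SE 0.175), and by 0.15 without that array. Psma8, the testis form of the subunit made by Psma7, had 2 probes, neither detected on any array.

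Of the 7 constitutive beta genes 3 were higher and 4 lower, with a median difference of -0.0043. The lowest 2 differences were those of the cutting subunits Psmb5 and Psmb6. Psmb6, the caspase-like subunit, had a log2 signal of 11.26, 11.02 and 11.38 on the null arrays, against 11.43, 11.30 and 11.62 on the heterozygous arrays. The null values lie mostly below, and the groups overlap at null array c and heterozygous array b. The difference was -0.23 (SE 0.164, adjusted p = 0.964, limma). It was -0.13 without null array b and -0.15 without heterozygous array c. A second Psmb6 probe gave 11.21, 11.10 and 11.14 on the null arrays, against 11.26, 11.24 and 11.57 on the heterozygous arrays, groups that do not overlap, and a difference of -0.21 (SE 0.155).

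Psmb5, the chymotrypsin-like subunit and the main target of proteasome inhibitors used in medicine, was the most variable member. Its log2 signal was 8.84, 8.80 and 9.64 on the null arrays, against 9.43, 10.19 and 8.50 on the heterozygous arrays. The heterozygous arrays alone thus cover the whole range of the null arrays, with both the highest and the lowest value. The difference was -0.28 (SE 0.385, 95% interval -1.14 to 0.58). That SE was the highest of the 63 member probes, and 0.437% of all tested probes had a higher one. The difference was 0.13 without heterozygous array b and -0.72 without heterozygous array c. A change of Psmb5 by 2-fold downward therefore lies inside the interval.

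Psmb7, the trypsin-like subunit, was measured by 4 probes, whose differences ran from -0.08 to 0.0045. The probe with the highest signal gave 11.58, 11.76 and 11.49 on the null arrays, against 11.57, 11.60 and 11.69 on the heterozygous arrays. Its difference was -0.0043 (SE 0.148), and the other probes gave -0.08, 0.0045 and -0.01. Of the beta subunits that do not cut, Psmb2 differed by 0.16 (SE 0.152), and by 0.08 without null array b, with 11.79, 11.95 and 11.62 on the null arrays, against 11.54, 11.66 and 11.68 on the heterozygous arrays. Psmb1 and Psmb3 differed by 0.08 each and Psmb4 by -0.02. Without null array b Psmb1 differed by -0.07, Psmb3 by 0.13 and Psmb4 by -0.10.

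The immunoproteasome subunits were not alike in detection: Psmb10 was detected on every array, Psmb8 on few and Psmb9 on none. Psmb9, which replaces Psmb6, had 1 probe, detected on 0 arrays, with raw signals of 74.24, 67.39 and 65.65 on the null arrays, against 73.51, 65.25 and 68.65 on the heterozygous arrays. Psmb8, which replaces Psmb5, had 2 probes. The first was detected on 2 of 3 null and 0 of 3 heterozygous arrays and the second on 1 of 3 null and 1 of 3 heterozygous arrays, so neither was tested. Their raw means were 77.5 ± 5.28 and 74.4 ± 7.89 in null lens, against 78.5 ± 4.83 and 80.4 ± 3.4 in heterozygous lens (SD, n = 3 each). Psmb10, which replaces Psmb7, was detected by both of its probes on all 6 arrays. Its log2 signal was 7.05, 7.24 and 7.01 on the null arrays, against 7.06, 7.34 and 7.39 on the heterozygous arrays, a difference of -0.16 (SE 0.159), and the second probe gave 0.05. Psmb11, the subunit found in the thymus, was detected on 0 arrays.

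**Figure D2:**
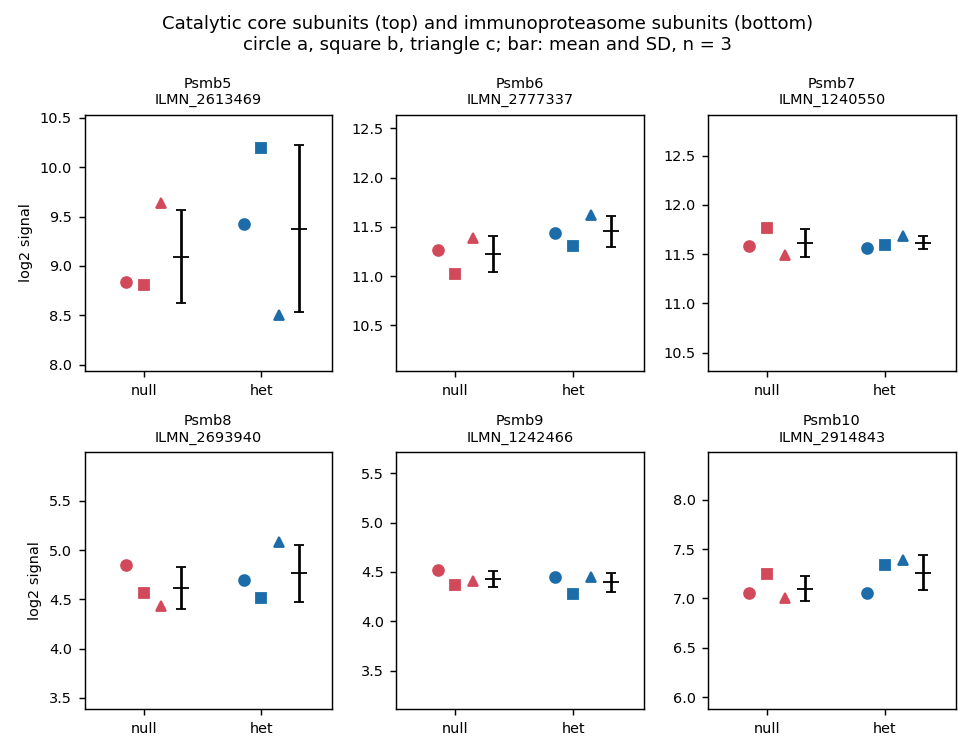
Log2 signal (y axis, each panel spanning the same number of log2 units) of the constitutive cutting subunits (top) and the immunoproteasome subunits that replace them (bottom), 1 probe each, on null (left, red) and heterozygous (right, blue) arrays. Symbols give arrays a, b and c and bars the mean and SD. Psmb5 spreads over 8.50 to 10.19 on the heterozygous arrays alone, while Psmb8 and Psmb9 sit near background, where the log2 scale carries little information.

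RefSeq promoters are shown for Psmb5 and Psmb6, whose probes were detected on all 6 arrays, and for Psmb8 and Psmb9, which replace them and were detected on few or none. Each sequence holds the 300 bases from 250 before to 50 after the start of the gene in GRCm38.p6, written along the gene, with matches in capitals. Searched on both strands were TGACNNNGC, the core of the antioxidant response element through which the factors made by Nfe2l1 and Nfe2l2 act on proteasome genes, CCAAT, the letters of the NF-Y box, and the core of the interferon-stimulated response element.
Psmb5, chr14:54617946-54618245, minus strand: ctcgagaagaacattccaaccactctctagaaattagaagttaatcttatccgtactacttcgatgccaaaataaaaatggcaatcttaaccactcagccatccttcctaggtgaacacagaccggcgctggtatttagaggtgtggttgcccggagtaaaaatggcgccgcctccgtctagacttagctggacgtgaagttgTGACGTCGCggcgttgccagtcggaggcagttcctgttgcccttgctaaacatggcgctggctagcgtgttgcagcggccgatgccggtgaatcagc
Psmb6, chr11:70525107-70525406, plus strand: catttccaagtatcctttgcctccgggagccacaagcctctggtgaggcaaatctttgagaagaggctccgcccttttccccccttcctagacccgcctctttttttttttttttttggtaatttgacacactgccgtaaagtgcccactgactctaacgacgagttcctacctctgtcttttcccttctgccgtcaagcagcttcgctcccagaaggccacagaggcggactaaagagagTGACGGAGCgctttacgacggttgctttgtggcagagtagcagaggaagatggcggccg
Psmb8, chr17:34197945-34198244, plus strand: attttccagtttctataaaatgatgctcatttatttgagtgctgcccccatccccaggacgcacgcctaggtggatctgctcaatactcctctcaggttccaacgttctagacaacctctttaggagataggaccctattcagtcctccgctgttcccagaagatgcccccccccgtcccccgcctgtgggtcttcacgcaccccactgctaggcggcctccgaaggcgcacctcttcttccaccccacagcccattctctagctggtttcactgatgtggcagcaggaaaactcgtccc
Psmb9, chr17:34187281-34187580, minus strand: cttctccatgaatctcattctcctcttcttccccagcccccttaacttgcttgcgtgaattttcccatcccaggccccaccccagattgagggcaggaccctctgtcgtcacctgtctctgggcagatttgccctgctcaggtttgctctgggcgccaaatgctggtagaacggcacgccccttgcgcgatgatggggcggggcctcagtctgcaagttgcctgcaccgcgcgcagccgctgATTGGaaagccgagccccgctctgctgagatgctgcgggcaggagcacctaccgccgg
The capitals in Psmb5 and Psmb6 mark TGACNNNGC, which begins 47 bases before the start in Psmb5 and 9 bases before it in Psmb6. Those in Psmb9 mark a CCAAT match on the other strand, and the Psmb8 window holds none of these letters.

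Of the 49 members 41 had a promoter in the table. The antioxidant core was found in 6 of them (Psmb5, Psmb6, Psmc6, Psmd9, Psmd12 and Psme4), 14.6%, against 14% of all 27025 genes with a promoter. CCAAT was found in 16 members, 39%, against 41.1% of all genes, and 5 of the 16 were alpha ring genes. The interferon-stimulated core was found in 5 members (Psmb3, Psmd4, Psmd9, Psme1 and Psmg4), 12.2%, against 3.99% of all genes, and in 0 of the 4 immunoproteasome and thymus genes. These matches are descriptions of short letter strings. The members lie on 16 chromosomes. In the gene table Psmb8 and Psmb9 are separated by 1 coding gene, Tap1, and Psmb5 lies directly beside Psmb11, so close neighbours can differ in whether a probe detected them.

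The ATPases of the cap base, which unfold the substrate, were 4 higher and 1 lower, with a median difference of 0.05. Psmc3 gave 9.91, 10.29 and 10.01 on the null arrays, against 9.90, 9.77 and 10.05 on the heterozygous arrays, a difference of 0.16 (SE 0.164). Psmc5 gave 11.24, 11.89 and 11.53 on the null arrays, against 11.33, 11.34 and 11.51 on the heterozygous arrays, also a difference of 0.16 (SE 0.186). In both genes the highest value is that of null array b. Without it Psmc3 differed by 0.06 and Psmc5 by -0.0022. Psmc4 differed by 0.03, Psmc1 by 0.05 and Psmc2 by -0.05. A second probe of Psmc2 gave -0.19 and one of Psmc5 gave 0.02. Of the 7 ATPase probes 0 had groups that do not overlap.

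With all arrays, the non-ATPase subunits of the cap held the most probes with separate groups. Of 17 tested probes 6 had null and heterozygous arrays that do not overlap, 35.3%, where 10.9% of all tested probes did. Among all 63 member probes the number was 10, 15.9%. In 5 of these the null arrays were all higher, where 5.43% of all tested probes were, and in 5 all lower, where 5.47% were. By gene the non-ATPase class was 4 higher and 6 lower, with a median difference of -0.0095, and of its 6 separate probes 4 were higher and 2 lower. Without null array b the number among all members was 21 of 63, 33.3%, where the background of all tested probes was 23%. The number in the non-ATPase class was then 8 of 17, 47.1%, while in the alpha ring it was 4 of 5, 80%, against 0 of 5 with all arrays. Those alpha ring probes went in opposite directions: Psma4 and Psma5 were higher in null lens, and both probes of Psma7 were lower.

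Psmd2, the large scaffold subunit that docks ubiquitin shuttle proteins, had the highest difference of any member with all arrays and the main processing. Its log2 signal was 5.20, 5.89 and 5.47 on the null arrays, against 5.04, 5.12 and 4.99 on the heterozygous arrays. All null arrays lie above all heterozygous arrays, null array a by little. The difference was 0.47 (SE 0.191, unadjusted p = 0.0343, adjusted p = 0.964, limma), a 1.38-fold higher signal. It was 0.28 without null array b, 0.18 with no background step, 0.26 with an offset of 50, 0.22 with array weights and 0.20 in the authors' values. In these settings other members had larger differences, and a stricter detection filter left the probe out. The probe is dim, with a raw signal of 99.6 ± 13.4 in null and 87.6 ± 5.44 in heterozygous lens (SD, n = 3 each). A second Psmd2 probe was detected on 2 of 3 null and 0 of 3 heterozygous arrays and was not tested.

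Psmd14, the metalloprotease that cuts ubiquitin chains off the substrate, differed by 0.30 (SE 0.154). Its values were 8.39, 8.30 and 8.57 on the null arrays, against 8.04, 8.27 and 8.06 on the heterozygous arrays, groups separated by a narrow gap. A second Psmd14 probe gave 8.29, 7.60 and 8.53 on the null arrays, against 8.27, 8.45 and 8.40 on the heterozygous arrays, a difference of -0.23 (SE 0.228). The probes of this gene therefore disagree, and null array b is the low one in the second.

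Psmd8, another cap subunit, was lower on each null array. It gave 9.56, 9.23 and 9.27 on the null arrays, against 9.69, 9.65 and 9.58 on the heterozygous arrays, a difference of -0.29 (SE 0.154, adjusted p = 0.964, limma). Psmd4, a ubiquitin receptor, gave 12.09, 11.99 and 12.07 on the null arrays, against 12.13, 12.16 and 12.11 on the heterozygous arrays. The groups do not overlap, yet the difference was as small as -0.09 (SE 0.139). Psmd1, the other large scaffold, differed by 0.03 with its brightest probe, 0.26 with another whose groups do not overlap, and -0.04 with the last. Psmd11, a subunit of the lid, differed by -0.04 and, with a second probe whose groups do not overlap, by 0.30. Psmd6 differed by 0.32 with an SE of 0.264, and its highest value, 7.56, belongs to null array c, without which the difference was 0.0053. A second, dim Psmd6 probe gave 0.02 (SE 0.288). The remaining genes of the class, Psmd7, Psmd12 and Psmd13, differed by -0.0065, -0.01 and -0.09. Without null array b these differences were -0.0013, -0.21 and -0.20. Second tested probes of Psmd7 and Psmd12 gave 0.19 and 0.0059.

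**Figure D3:**
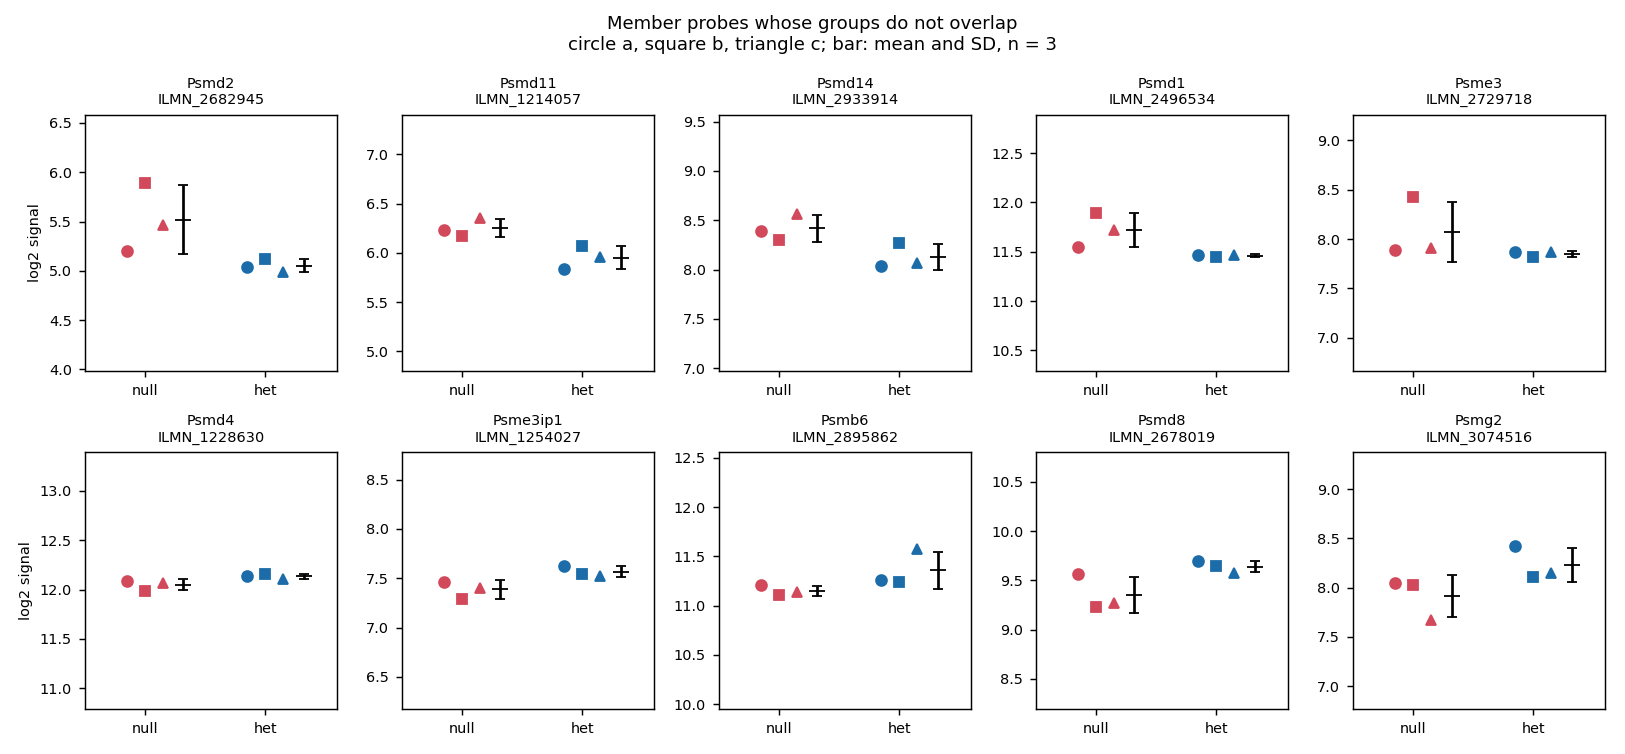
Log2 signal (y axis, each panel spanning the same number of log2 units) of the 10 member probes whose null (left, red) and heterozygous (right, blue) arrays do not overlap, ordered from the highest to the lowest difference. Symbols give arrays a, b and c and bars the mean and SD; Psmd2 has the widest gap between means, 0.47, and Psmd4 a gap of -0.09.

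The activators are alternative caps that open the core without ATP. Psme1 and Psme2, which form the interferon-inducible activator together and are near neighbours on chromosome 14, were detected on all 6 arrays. Psme1 gave 9.17, 8.92 and 9.26 on the null arrays, against 9.10, 9.21 and 9.04 on the heterozygous arrays, a difference of -0.0037 (SE 0.155). A second Psme1 probe differed by 0.16, with its highest value, 9.10, on null array b. Psme2 gave 7.28, 7.01 and 6.97 on the null arrays, against 7.18, 6.87 and 6.90 on the heterozygous arrays, a difference of 0.10 (SE 0.163), which was 0.0059 without null array a. Both genes have overlapping groups. Psme3, the nuclear activator, gave 7.89, 8.43 and 7.91 on the null arrays, against 7.86, 7.81 and 7.87 on the heterozygous arrays. Its groups do not overlap, but the difference of 0.23 (SE 0.178) rests on null array b and was 0.05 without it. Psme4, the large single-chain activator, differed by -0.12 (SE 0.192), and by 0.087 without null array b. A second, dim Psme4 probe, detected on 4 of 6 arrays, gave 0.12. The median of the 4 genes was 0.05. The inhibitor gene Psmf1 was not analysed here.

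Assembly factors are chaperones that leave the finished particle. Psmg1 to Psmg4 build the alpha ring, and Psmd5, Psmd9 and Psmd10 the ATPase ring. Of the 6 tested genes 2 were higher and 4 lower, with a median difference of -0.02. Psmg2 gave 8.05, 8.03 and 7.67 on the null arrays, against 8.42, 8.11 and 8.15 on the heterozygous arrays, with all null arrays below. The difference was -0.31 (SE 0.171, adjusted p = 0.964, limma), while 2 other probes of Psmg2 gave 0.02 and -0.31, the last with overlapping groups. Without null array c the first probe gave -0.19. Its partner Psmg1 differed by -0.09 (SE 0.201), and by -0.30 without null array b. Psmg3 gave 6.82, 6.97 and 6.43 on the null arrays, against 6.68, 6.51 and 6.68 on the heterozygous arrays, a difference of 0.12 (SE 0.176), which was 0.0045 without null array b. Psmd10, also known as gankyrin, differed by -0.0098, with other probes at -0.12 and -0.17. Psmd5 and Psmd9 differed by -0.02 and 0.06.

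The symbol rule also took in 2 genes that are not proteasome parts. Psmc3ip encodes a cofactor of meiotic recombination and differed by 0.07 (SE 0.204), with 6.30, 6.14 and 5.95 on the null arrays, against 5.78, 6.48 and 5.93 on the heterozygous arrays. Psme3ip1 encodes a binding partner of the Psme3 activator and gave 7.47, 7.29 and 7.41 on the null arrays, against 7.63, 7.55 and 7.52 on the heterozygous arrays. Its null arrays all lay below, and the difference was -0.18 (SE 0.143), with a second probe at -0.24. Leaving both genes out, 17 genes were higher and 20 lower, and the median stayed at -0.0043.

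Much of the spread within the null group came from 1 array. Null array b was the array farthest from the median of the 6 for 19 of the 39 member genes, 48.7%, as it was for 45.1% of all tested genes. The other arrays were farthest for 2 to 6 member genes each. On null array b the median member deviated from its own mean by -0.002, so the array scattered the members in both directions and did not shift them together. By class, its median deviation was -0.20 for the alpha ring, 0.15 for the constitutive beta ring, 0.09 for the ATPases, 0.0058 for the non-ATPase subunits, -0.11 for the activators and 0.06 for the assembly factors. The alpha ring median hides opposite deviations, Psma2 and Psma4 being low and Psma7 high. With null array b left out, 0 member probes passed the adjusted threshold.

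**Figure D4:**
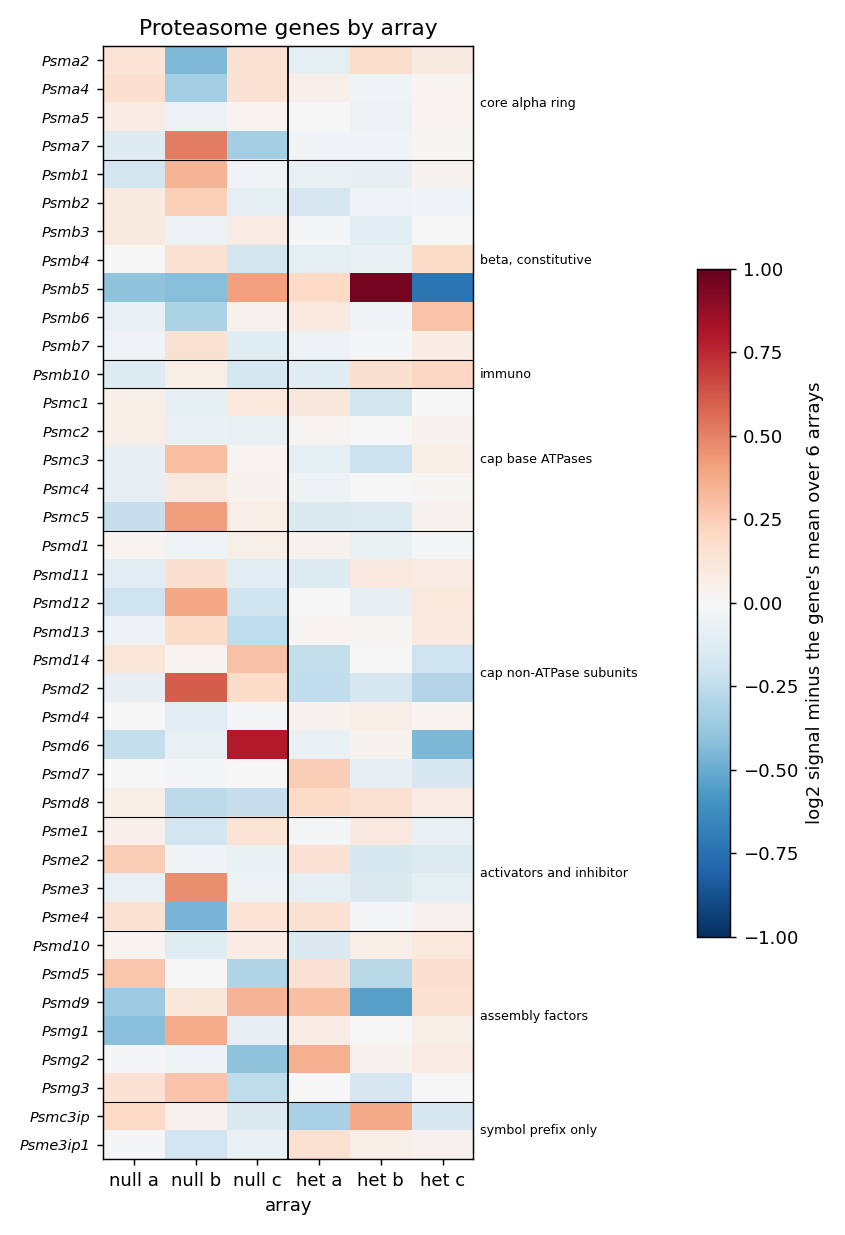
Log2 signal of each tested gene on each array minus the gene's mean over the 6 arrays (colour scale), null arrays left and heterozygous arrays right of the vertical line, genes grouped by class. Null array b is the farthest array for 19 of 39 genes with both signs present, and Psmb5 varies most between heterozygous arrays b and c.

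Genes that work with the proteasome but carry other symbols were taken from fixed lists, and 0 of them passed. Of cap and assembly partners 7 were tested, 3 higher and 4 lower, with a median difference of -0.02. Pomp, the chaperone that matures the core, differed by 0.11 and Sem1, a small cap subunit, by 0.0061. Zfand2a, a stress-induced protein that binds the proteasome, had a raw signal of 320 ± 32 in null and 391 ± 22.7 in heterozygous lens (SD, n = 3 each). Its groups do not overlap, with a difference of -0.36 (SE 0.155, unadjusted p = 0.0425, adjusted p = 0.964, limma). Of the regulators of proteasome genes 4 were tested, 1 higher and 3 lower. Nfe2l2, the stress-activated factor of the antioxidant response, had raw signals of 93.2, 100.71 and 93.4 on the null arrays, against 87.38, 87.7 and 74.38 on the heterozygous arrays. All null arrays were higher, and the gene was detected on 3 of 3 null and 2 of 3 heterozygous arrays. The difference was 0.58 (SE 0.155, unadjusted p = 0.00414, adjusted p = 0.964, limma). The Nfe2l2 probe is dim, with raw means of 95.8 in null and 83.2 in heterozygous lens. The median raw signal of all probes on an array was 69 to 76.64. Nfe2l1, which restores proteasome genes when the proteasome is inhibited, differed by -0.06 (SE 0.151).

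Shuttle and segregase genes, which carry ubiquitinated proteins to the cap, were 5 higher and 2 lower, with a median of 0.17. In raw signal, each of the 5 higher genes had its highest value on null array b. Each of the 2 lower genes, Rad23b and Ubqln1, had its lowest value there. The direction of the class without that array was not tested. Vcp, the segregase itself, differed by 0.06 (SE 0.148) and the shuttle gene Ubqln1 by -0.28 (SE 0.176). Other probes of Ubqln1 gave 0.26 and 0.03, so the probes of this gene disagree. Bag6 differed by 0.45 with an SE of 0.361, its raw signal of 1502.99 on null array b standing against 479.73 and 612.08 on null arrays a and c. Uba6, an enzyme that activates ubiquitin, differed by -0.47 (SE 0.224), again with its lowest signal on null array b.

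Interferon and antigen processing genes, the usual company of the immunoproteasome, were 2 higher and 3 lower among 5 tested, with a median of -0.08. Tap1, Tap2 and H2-K1 were detected on 0 arrays, as Psmb9 was. Irf1 differed by -0.08 (SE 0.247), B2m by -0.22 (SE 0.169) and Nlrc5 by 0.19 (SE 0.172). Other probes of Irf1 and B2m gave 0.11 and 0.12, opposite in sign. Immune cells express the immunoproteasome strongly, so markers of macrophages and lymphoid cells are given beside it. Of 12 such genes with a probe 3 were detected on all 6 arrays, and the probes of C1qa, C1qb, H2-Aa, Lyz2 and Ptprc were detected on 0. The summed raw signal of the 12 was 842 to 919 in null lens, against 935 to 1052 in heterozygous lens, ranges that do not overlap. Most of the probes in that sum are at background, and the ranges overlap when H2-Eb1 is left out of it. H2-Eb1 gave raw signals of 100.23, 100.13 and 81.11 on the null arrays, against 121.76, 152.35 and 142.9 on the heterozygous arrays. Of the 4 tested, 2 were higher (Aif1 by 0.07, with another probe at -0.03, and Csf1r by 0.03) and 2 lower, with a median of -0.06. H2-Eb1, a class II antigen presentation gene among them, differed by -1.04 (SE 0.220, unadjusted p = 0.000885, adjusted p = 0.964, limma) with all null arrays lower. The part of these cells in the Psmb10 signal was not tested. In bulk lens RNA, fewer cells of a type and less RNA per cell cannot be told apart.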

How the data were processed

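Per the labels' protocols, an Illumina TotalPrep kit turned lens RNA into biotin-labelled cRNA. The deposited raw table gives linear intensity values, and a detection p-value for each, per the file headers; the sources used here do not name the scanner software or any background step. The authors' normalised intensity table, method not given, served as an alternative. The p-value steps imply 936 negative controls.

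Normalisation used neqc (limma 3.58.1, R 4.3.3), with normexp from detection p-values, an offset of 16, quantile scaling and log2. The fit took every probe whose detection p was under 0.05 on 3 or more arrays (lmFit, eBayes, two-sided, no covariates) with Benjamini-Hochberg adjustment over 14636 probes. The probe with the highest mean log2 signal represents a gene. Non-overlap was judged on log2 values. The platform annotation gave 34885 probes 1 symbol, 18 several and 10378 none. Raw columns carry no replicate number, so arrays were lettered by column order and pair nothing. Members, classes and lists were chosen with earlier results of these data known, so no list was tested. Array values are given for cutting and immunoproteasome subunits, Psme1, Psme2 and the 2 genes of smallest p per class; Psma7, Psmd4, Psmd8, and further genes other than Zfand2a, Nfe2l2, Uba6, Ubqln1 and B2m, were added after their values were seen. Steps were tested on simulated data. Promoter sequences are from RefSeq, GRCm38.p6. No protein table was used here.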

Additional observations from a re-analysis of the deposited data

How the results depend on the processing

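Under 16 alternative settings 0 member probes passed in any of those fitted. The number of passing probes over the whole array, 2 with all arrays, was 13 with array weights, 1 without a filter and 1 with the authors' values and the replicate block; leaving out 1 array gave 1 to 3. The block could be fitted on the authors' values alone, whose columns carry numbers. There the deviations of same-numbered samples correlated by 0.16, -0.15 and -0.15, so the numbers are not taken as pairs. The number of member probes with an unadjusted limma p under 0.05 ran from 0 to 6, the highest without a filter.

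The median of the activators was 0.12 with median scaling, and -0.0115 to 0.0943 when 1 array was left out; the other class medians moved by less than their spread between arrays. Several differences changed sign between settings, and not only those near 0. The main values of Psmb5, Psmc5 and Psma2, which did so, were -0.28, 0.16 and -0.11. Psma4, Psma7, Psmb1 and Psmg1, among others, also changed sign, and their ranges are not listed here. With array weights Psmc5 was -0.0499, Psme1 0.0369 and Psma2 0.0522. In the authors' values Psma5 was -0.0419 with and without the block. With median scaling Psmb7 was 0.0184 and Psme1 0.0625. Leaving out 1 array gave -0.206 to 0.087 for Psma2, -0.0031 to 0.0651 for Psma5, -0.717 to 0.127 for Psmb5, -0.0801 to 0.0564 for Psmb7, -0.0747 to 0.276 for Psmc3ip, -0.0022 to 0.32 for Psmc5 and -0.0744 to 0.0921 for Psme1. The cause was not tested. On the forward strand alone the antioxidant core was in 7.32% of members and 7.29% of all genes, the interferon-stimulated core in 4.88% and 2.06%, and CCAAT in 34.1% and 23.7%, so the CCAAT share of members was then above that of all genes. Members with few detected probes, such as Psmb8 and Psmb9, are limited by signal over background. That 21 and not 10 member probes had separate groups without null array b was looked at after seeing the data.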
